A study of Rattus norvegicus with 6 samples.

Results

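The genes described here are the nuclear genes of the mitochondrial respiratory chain and ATP synthase in lungs of rats that had inhaled particles. They were taken by name: every probe whose gene name began with Nduf, Uqcr, Atp5 or Cox4 to Cox8, or was Sdha, Sdhb, Sdhc or Sdhd, once the endings _predicted and _mapped were removed. This gave 70 genes with 81 probes, of 35737 genes and unnamed features with 41012 probes on the array, and each gene was read from its brightest probe. The filter on dim probes was passed by 69 of the 70, of 24541 features tested in all; the one left out was Cox6c1, now named as a pseudogene (Cox6c-ps1). Of the 70, 31 belong to complex I, 4 to complex II, 5 to complex III, 14 to complex IV and 13 to complex V, and 3 match by name only. These are Atp5s, now Dmac2l, Cox4nb, now Emc8, and Cox6b, whose probe has an accession that now describes a gene like uroplakin Ia.

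The rats were male Wistar rats, 9 weeks old, and the design gives 5 rats per group and time. They were exposed in a whole-body chamber to clean air (the control), to an aerosol of C60 fullerene, a cage of carbon atoms, or to ultrafine nickel oxide (NiO), which the study used as its positive control. Exposure ran for 6 hours a day on 5 days a week over 4 weeks, and lungs were dissected 3 days or 33 days later, called 3 days and 1 month here. Saline was run through the lungs, and right-lung RNA was labelled for 1-colour arrays. Used here were 21 arrays: at 3 days 3 of control, 2 of C60 and 4 of NiO lungs, at 1 month 4 per group.

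The respiratory chain sits in the inner membrane of the mitochondrion and moves electrons from NADH (complex I) and succinate (complex II) through complex III to complex IV, which hands them to oxygen. Complexes I, III and IV pump protons, and complex V, the ATP synthase, uses the proton gradient to make ATP. Most subunits are encoded in the nucleus and a few in mitochondrial DNA. In the lung, mitochondria are plentiful in alveolar type II cells, which make surfactant, and the pulmonary veins of rodents carry a sleeve of heart muscle, a tissue dense in mitochondria.

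Levels below are log2 processed signal, scaled so that 0 is the 75th percentile of an array, and a difference of 1 is a 2-fold difference. A gene is said to have risen or fallen where limma's Benjamini-Hochberg adjusted p over all 24541 features was under 0.05; the p-values measure the spread between arrays. Arrays are numbered by their position on the slide. Of the 70 genes, 67 were well above background on all 21 arrays. From 57.4% to 78.2% of spots passed the scanner's test against background. The lowest share was that of C60 array 1 at 3 days, which also stood apart in the median signal of its negative controls (144, beside 24.4 to 54.0 on the other arrays used). Each of the 6 slides held 1 group and each of the 2 scan batches 1 time, so slide and group, and scan and time, cannot be told apart. The comparisons at 1 time share their control arrays. In RNA of a whole lung, fewer cells of a type and less RNA per cell cannot be told apart.

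The probes of 4 of these genes carry much of what follows, and their bases are printed here in full because the pattern of the values moved with the base composition of the probes, described further on. Each is written 5′ to 3′ with G and C in capitals, and coordinates are those of the array's files, on rat build rn4. The Ndufs8 probe lies at chr1:206435899-206436397 on the minus strand and spans 499 genomic bases, the Cox4i1 probe at chr19:51024035-51025064 on the plus strand and spans 1030, the Atp5d probe at chr7:11073061-11073120 on the minus strand, and the Ndufaf1 probe at chr3:106171591-106171650 on the minus strand. No annotation of that build was used, so exons are not given. The share of G and C is 48.3% in the Ndufs8 probe, 51.7% in the Cox4i1 probe, 55.0% in the Atp5d probe and 36.7% in the Ndufaf1 probe.
Ndufs8: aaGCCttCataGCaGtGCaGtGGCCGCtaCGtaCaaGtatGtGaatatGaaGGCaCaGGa
Cox4i1: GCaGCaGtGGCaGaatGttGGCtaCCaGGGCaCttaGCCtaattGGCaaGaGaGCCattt
Atp5d: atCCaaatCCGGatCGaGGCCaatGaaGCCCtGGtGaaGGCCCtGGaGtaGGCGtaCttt
Ndufaf1: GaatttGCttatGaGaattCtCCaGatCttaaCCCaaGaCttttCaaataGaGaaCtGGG

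After NiO at 3 days the respiratory chain genes that passed the test went both ways. The median log2 difference from control over the 69 was 0.03 (quartiles -0.13 and 0.22, range -1.02 to 0.74), beside 0.04 over all genes tested. The 5 that rose included Ndufaf1, Atp5f1, Ndufb2 and Atp5s, and Ndufs8, Cox4i1 and Ndufs7 fell. The 8 are 11.6% of the 69, beside 19.0% of all genes tested (11.1% higher, 7.88% lower) and 16.1% of the 3860 genes at least as bright as the lower quartile of the 69. The NiO and control arrays did not overlap in 4 genes higher and 7 lower, 15.9% of the 69, beside 23.2% of all genes. By complex, 5 of 31 genes of complex I were called (3 higher, 2 lower), none of 4 of complex II, none of 5 of complex III, 1 of 13 of complex IV (lower) and 1 of 13 of complex V (higher). The median of the 69 was -0.03 with quantile normalization, 0.00 with normexp background and -0.15 with median scaling, so its sign is not settled. Median scaling called 1 of the 69 higher and 8 lower, and quantile normalization 5 each way, so the balance of calls is not settled either.

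The count at 3 days rested on single arrays. Leaving out NiO array 1 gave 25 (18 higher, 7 lower), array 2 of that group 3 and array 3 gave 2. Leaving out control array 1 gave 3, array 2 gave 4 and array 3 also 4. With both NiO arrays 2 and 3 left out it was 1, and that gene was higher.

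At 1 month after NiO, the median of the 69 lay above that of all genes. It was 0.10 (quartiles -0.01 and 0.23), beside -0.12 over all genes and -0.02 over the 3860 bright genes. Atp5d, Ndufs8, Ndufv3l, Ndufs5b, Atp5g1, Atp5g2 and Cox5b rose, and 2 fell, among them Ndufa7. The 9 are 13.0% of the 69, beside 31.0% of all genes tested (12.0% higher, 18.9% lower) and 22.4% of the 3860 bright genes. The NiO and control arrays did not overlap in 9 genes higher and 2 lower, 15.9% of the 69, beside 37.2% of all genes. Complex I had 3 genes called higher and 2 lower, complex IV 1 higher and complex V 3 higher; none of complex II or III was called. The median of the 69 minus that of all genes was 0.22 under scaling to the 75th percentile or to the median, 0.09 with quantile normalization and 0.23 with normexp background. With median scaling the median over all genes was 0.22, in place of -0.12, and that of the 69 was 0.44. It called 47 of the 69 higher and 0 lower. Of calls over all genes, 77.4% were then higher, against 38.8% as analysed here and 55.4% with quantile normalization. Leaving out control array 2 gave a count of 3, NiO array 1 also 3, array 2 of the NiO group 5 and its array 3 again 3; leaving out control arrays 3 and 4 together gave 22.

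After C60, few genes passed the test at either time. At 3 days the median of the 69 was -0.21 (range -0.77 to 0.47), beside -0.03 over all genes and -0.08 over the 3860 bright genes. The median of the 69 lay below 0 under each of the 4 scalings and background corrections (-0.24 to -0.13). It was -0.19 without C60 array 1 and -0.20 without C60 array 2. Ndufb7 and Ndufs7 fell and none rose, which is 2.90% of the 69 beside 4.94% of all genes tested (2.94% higher, 2.00% lower). The 2 C60 arrays lay outside the range of the 3 control arrays in 5 genes higher and 35 lower. These are 58.0% of the 69, beside 45.2% of all genes and 49.9% of the 3860 bright genes (598 higher, 1328 lower). Counts with arrays left out or added, below, are of genes called by the test. The count was 0 when control array 2, control array 3, C60 array 1 or C60 array 2 was left out and 1 without control array 1; with all 4 deposited C60 arrays it was 14 (1 higher, 13 lower). At 1 month the median was 0.10, beside -0.09 over all genes and -0.02 over the 3860 bright genes. Atp5d, Ndufs5b and Ndufs7 rose and none fell, 4.35% of the 69 beside 19.8% of all genes tested (7.36% higher, 12.5% lower). Normexp background gave 6 higher and 4 lower, and quantile normalization 3 and 1. The C60 and control arrays did not overlap in 4 genes higher and 2 lower, 8.70% of the 69, beside 27.6% of all genes. The count of genes called was 0 without control array 2, C60 array 1 or C60 array 2, and 1 without C60 array 4. It was 6 without control array 3, 9 without control array 4 and 17 without control arrays 3 and 4. With median scaling it was 42, all higher, and 78.6% of calls over all genes were then higher, against 37.2% as analysed here and 55.3% with quantile normalization; at 3 days after NiO these shares were 34.5%, 58.5% and 45.7%.

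**Figure D1:**
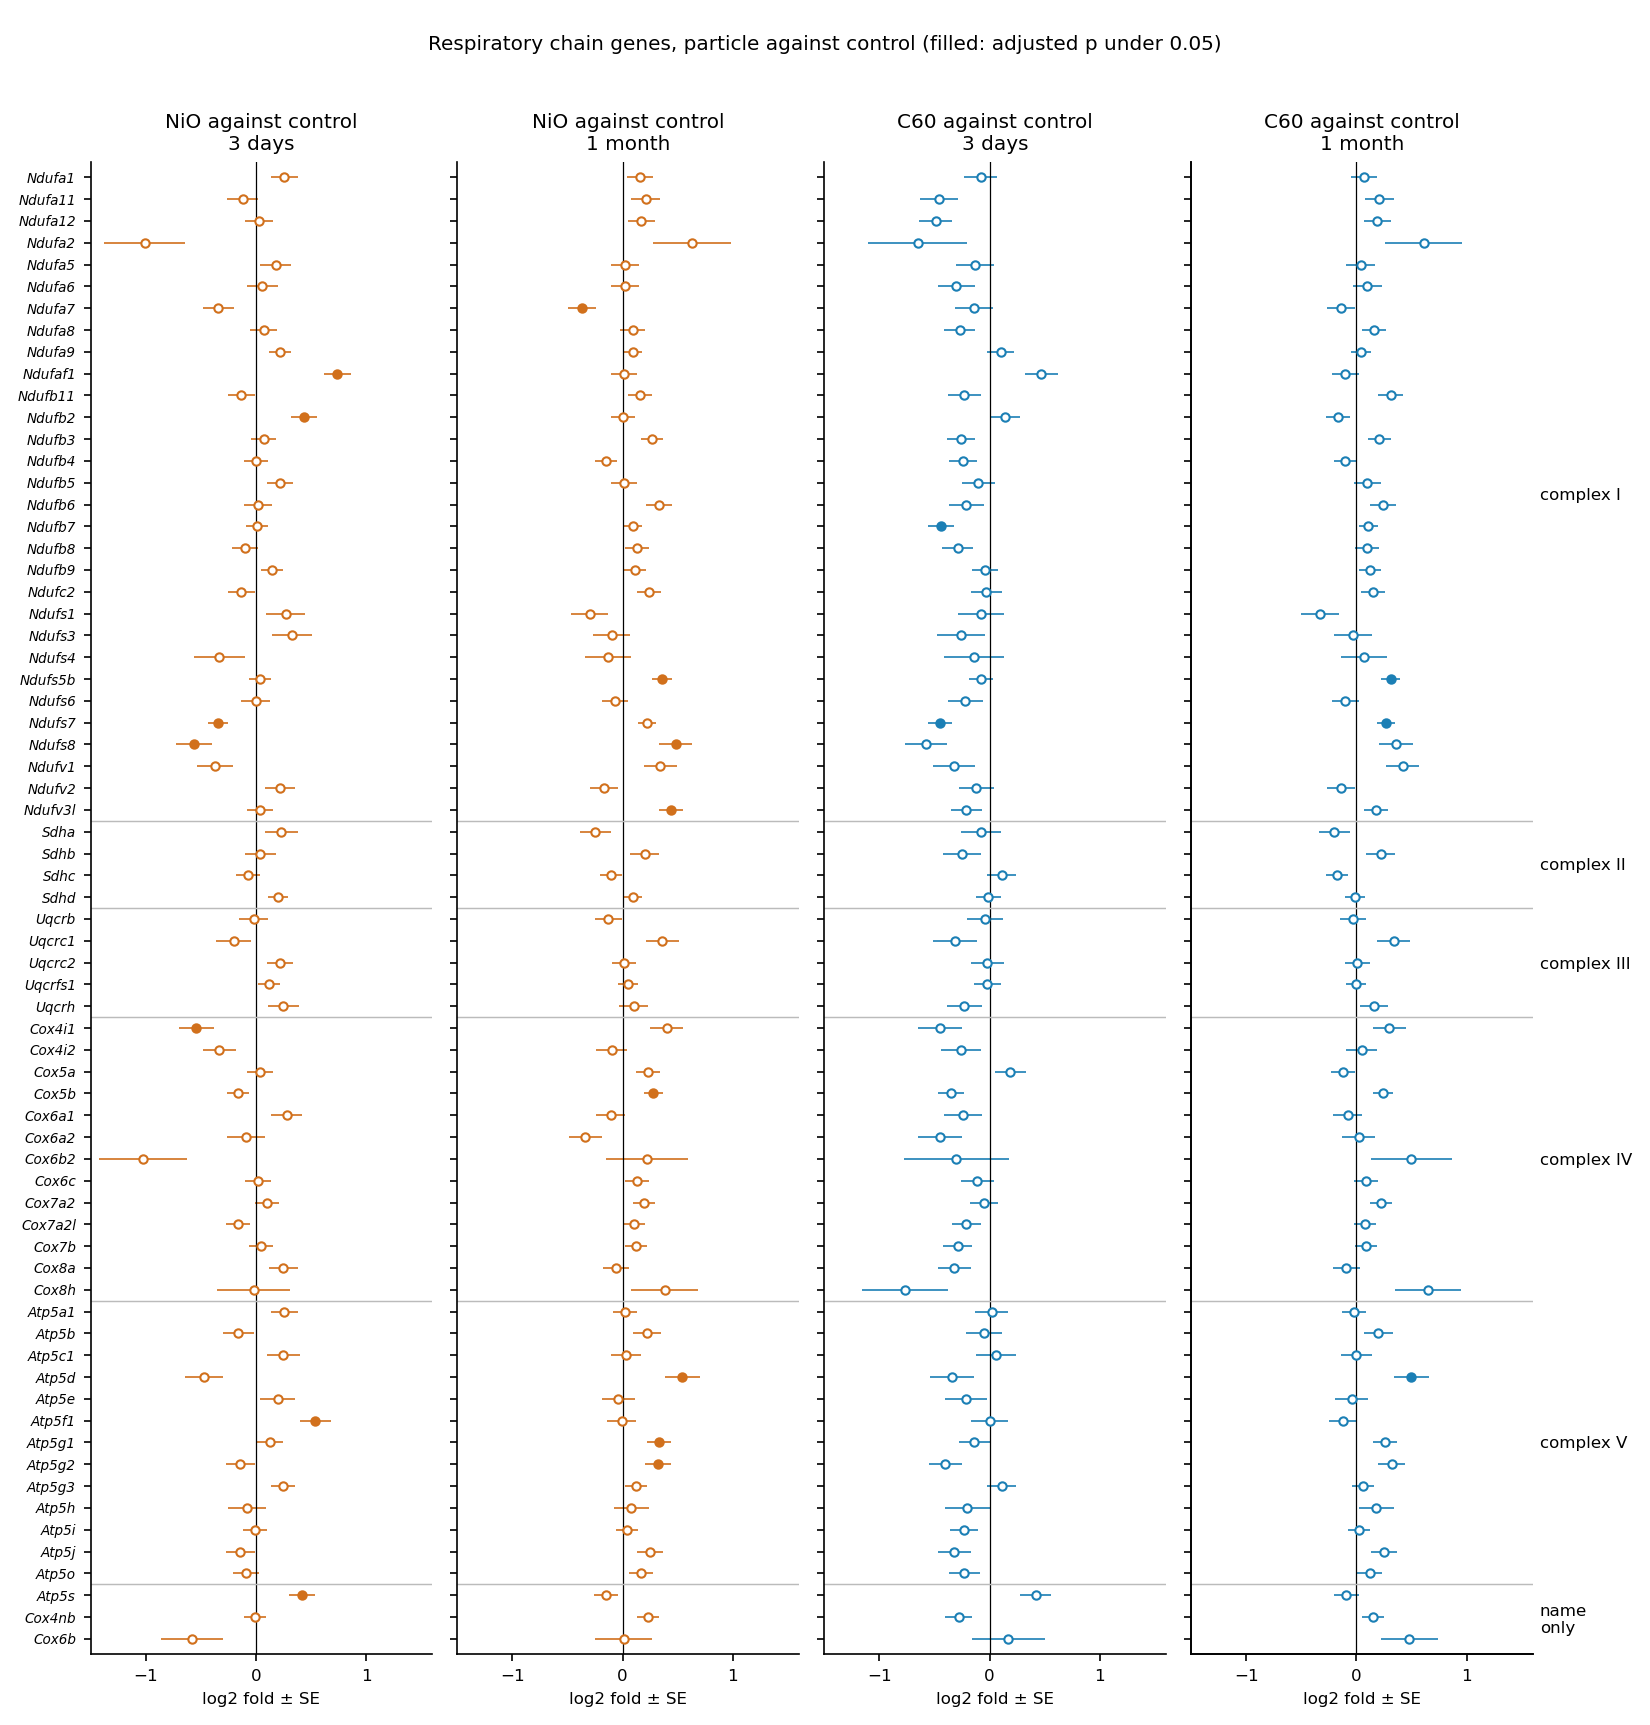
Log2 difference from control (points, with bars of 1 standard error) of 68 of the 69 tested genes, grouped by complex, in a panel for each particle and time; filled points passed the test over all features. The 3-day NiO points run from -1.02 to 0.74 and the 1-month NiO points from -0.37 to 0.63.

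The core subunits of complex I carry the flavin and the iron-sulfur clusters along which electrons run from NADH to ubiquinone. Ndufs7, which holds the last iron-sulfur cluster before ubiquinone, was 4.27, 4.56 and 4.40 in 3-day controls, 3.89 and 4.02 after C60, and 4.03, 3.96, 4.12 and 4.14 after NiO. Neither particle group overlapped the controls, and it fell by 0.34 ± 0.09 after NiO (adjusted p = 0.0161) and by 0.45 ± 0.11 after C60 (adjusted p = 0.0203). At 1 month it was 4.38, 4.31, 4.28 and 4.29 in controls, 4.53, 4.53, 4.50 and 4.77 after C60, and 4.62, 4.50, 4.51 and 4.50 after NiO. Every particle array was then above every control array: C60 array 4 and NiO array 1 were the highest of their groups. It rose after C60 (0.27 ± 0.08, adjusted p = 0.0353) and had a value of 0.22 ± 0.08 after NiO (adjusted p = 0.0566). The 3-day NiO call was lost without control array 2 (-0.27, adjusted p = 0.0841). The C60 calls were lost in 4 of 5 such fits at 3 days and 6 of 8 at 1 month, with adjusted p up to 0.211 and 0.1. Each of these calls was also lost with the trend over probe G and C content taken out, described further on.

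Ndufs8, whose clusters pass electrons on to that of Ndufs7, was 0.44, 0.73 and 0.61 in 3-day controls, 0.00 and 0.03 after C60, and 0.19, -0.29, -0.04 and 0.29 after NiO. All particle arrays lay below the controls, and it fell after NiO (-0.56 ± 0.16, adjusted p = 0.0256) with a value of -0.58 ± 0.19 after C60 (adjusted p = 0.103). At 1 month the controls were 0.24, -0.30, 0.37 and 0.41, the C60 arrays 0.68, 0.61, 0.37 and 0.50, and the NiO arrays 0.70, 0.60, 0.83 and 0.52. The NiO arrays were all above the controls, and control array 2 was the lowest of its group. It rose after NiO (0.48 ± 0.15, adjusted p = 0.0229), and after C60 its value was 0.36 ± 0.15 (adjusted p = 0.0924). A second, dimmer probe of Ndufs8 gave -0.22 and 0.43 for NiO and -0.08 and 0.38 for C60 at the 3-day and 1-month points. The 3-day NiO call was lost in 4 of 7 fits with 1 array left out, those without array 2 or 3 of the controls or of the NiO group (values over the 7 from -0.64 to -0.45, adjusted p up to 0.0929), and the value was -0.35 without NiO arrays 2 and 3. The 1-month call was lost on leaving out control array 2 (0.32), or array 1 (0.47) or 3 (0.43) of the NiO group.

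The core subunits Ndufv1, Ndufs1, Ndufs3 and Ndufv2 did not pass the test in a comparison with control. Ndufv1, which binds NADH and the flavin, was 1.63, 1.77 and 1.70 in 3-day controls and 1.63, 1.10, 1.20 and 1.38 after NiO (-0.37 ± 0.16, adjusted p = 0.106). At 1 month the controls spread widely, at 0.67, 0.33, 1.09 and 1.12, and the NiO arrays were 1.18, 1.26, 1.10 and 1.03 (0.34 ± 0.15, adjusted p = 0.0872). Ndufs1, the largest core subunit, had values of 0.27 ± 0.18 (adjusted p = 0.285) at 3 days and -0.30 ± 0.17 (adjusted p = 0.174) at 1 month after NiO. The groups overlapped in Ndufs1, where NiO arrays 2 and 3 of the 3-day slide, at 1.54 and 1.42, were above the highest control array, at 1.13. Ndufs3 and Ndufv2 had 3-day NiO values of 0.33 ± 0.18 (adjusted p = 0.21) and 0.22 (adjusted p = 0.265).

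Among the 23 accessory subunits of complex I, which surround the core and are needed for assembly and stability, 1 rose after NiO at 3 days, and 2 rose and 1 fell at 1 month. These are 4.35% and 13.0% of the 23, beside 19.0% and 31.0% of all genes tested called either way. Ndufb2, in the membrane arm, was 3.37, 3.67 and 3.60 in 3-day controls and 3.66, 3.90, 4.28 and 4.10 after NiO, and rose by 0.44 ± 0.12 (adjusted p = 0.0175). NiO array 1 lay within the control range, and the call was lost without control array 1 (0.36, adjusted p = 0.0968) or NiO array 3 (0.34). At 1 month its value was 0.00 ± 0.11. Ndufa2, in the peripheral arm, had the largest difference of the complex at 3 days but also a wide spread, with 1.79, 1.92 and 2.14 in controls and 1.56, 0.36, 0.64 and 1.20 after NiO. All NiO arrays were below the controls, and its value was -1.01 ± 0.37 (adjusted p = 0.0651).

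At 1 month the accessory subunits Ndufs5b and Ndufv3l rose after NiO and kept that call whichever array was left out. Ndufs5b, the array's name for Ndufs5 of the membrane arm, was 4.04, 4.01, 4.10 and 4.05 in controls, 4.44, 4.36, 4.23 and 4.40 after C60, and 4.47, 4.41, 4.53 and 4.23 after NiO. Neither particle group overlapped the controls, and it rose by 0.36 ± 0.09 after NiO (adjusted p = 0.00703) and by 0.31 ± 0.09 after C60 (adjusted p = 0.0243). The C60 call was lost without control array 2 (0.29), C60 array 1 (0.28), C60 array 2 (0.31) or C60 array 4 (0.29). Its 3-day values were 0.04 after NiO and -0.08 after C60. Ndufv3l, now Ndufv3, at the tip of the peripheral arm, was 2.14, 2.26, 2.07 and 2.20 in controls and 2.57, 2.50, 2.73 and 2.62 after NiO (0.44 ± 0.11, adjusted p = 0.00856). The NiO arrays did not overlap the controls, while the C60 arrays, at 2.31, 2.29, 2.07 and 2.72, did (0.18 ± 0.11, adjusted p = 0.256). Ndufa7, of the peripheral arm, was 0.52, 0.18, 0.52 and 0.54 in controls and 0.19, 0.14, 0.04 and -0.07 after NiO, and fell (-0.37 ± 0.13, adjusted p = 0.0424). Control array 2 lay with the NiO arrays, and that call was lost in 7 of 8 fits with 1 array left out (adjusted p up to 0.105).

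Ndufb7, an accessory subunit on the outer face of the membrane arm, was 3.80, 3.87 and 3.76 in 3-day controls, 3.33 and 3.41 after C60, and 3.60, 3.88, 4.04 and 3.78 after NiO. The C60 pair lay below both other groups, and Ndufb7 fell after C60 (-0.44 ± 0.12, adjusted p = 0.0463). That call was lost in each of the 5 fits with 1 array left out (adjusted p up to 0.29).

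Ndufaf1 makes no part of the finished complex but is an assembly factor of its membrane arm. It was -2.71, -2.62 and -2.59 in 3-day controls, -2.19 and -2.14 after C60, and -2.28, -1.89, -1.57 and -1.84 after NiO. All particle arrays were above the controls, and it rose after NiO by 0.74 ± 0.12 (adjusted p = 0.00075), a 1.67-fold difference, with a value of 0.47 ± 0.15 after C60 (adjusted p = 0.081). This was the only 3-day NiO call among the 8 that held whichever array was left out. At 1 month controls were -1.45, -1.36, -1.62 and -1.51 and NiO arrays -1.53, -1.51, -1.36 and -1.52, overlapping, with a value of 0.01 ± 0.12 (adjusted p = 0.967).

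**Figure D2:**
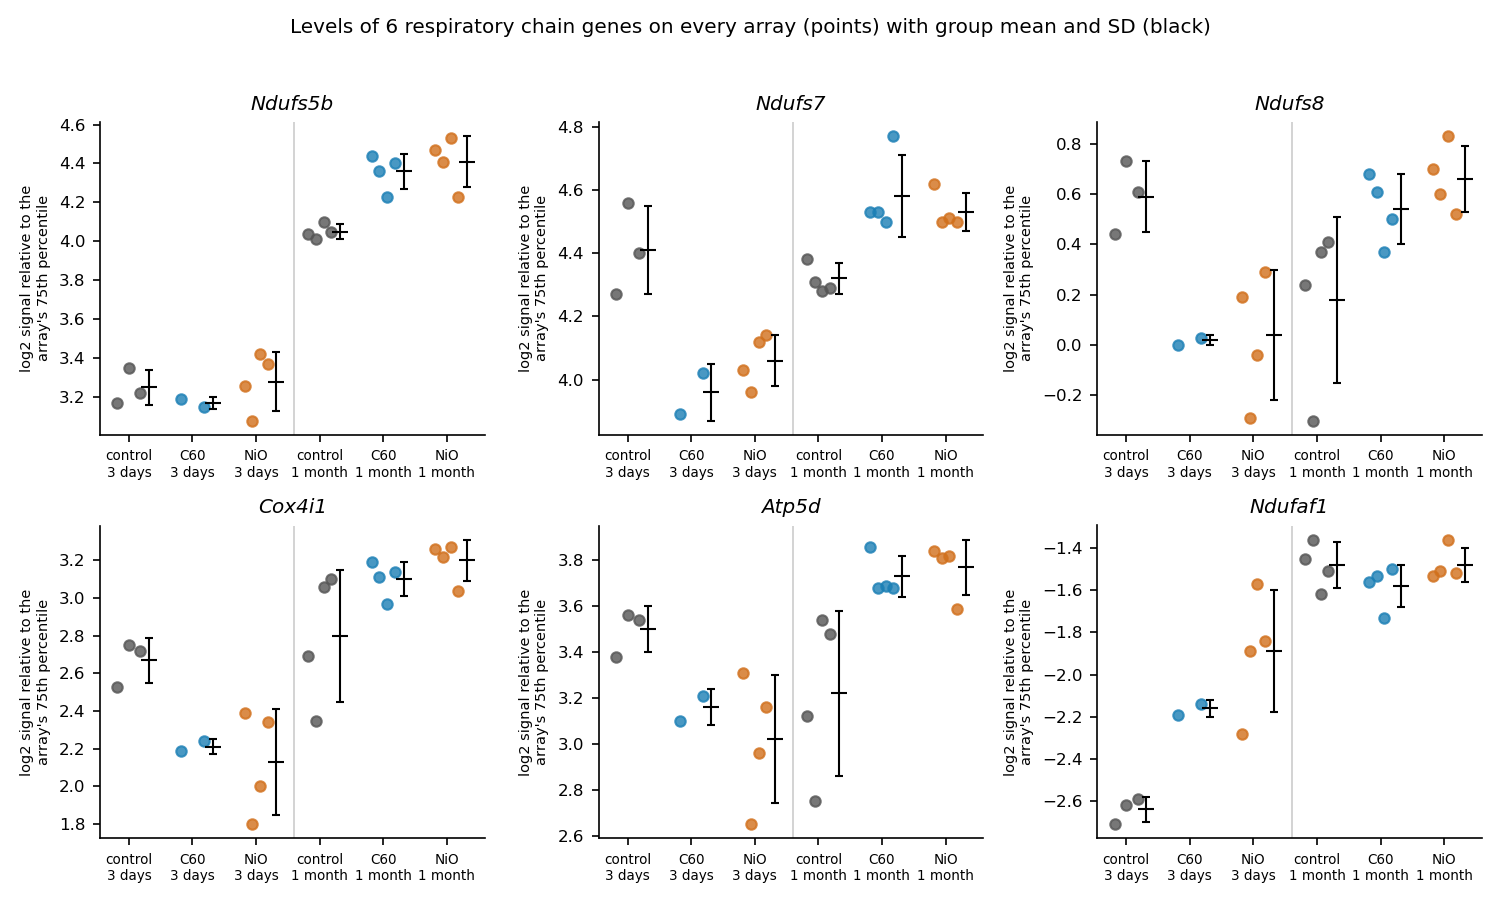
Levels (log2 signal scaled to each array) of Ndufs5b, Ndufs7, Ndufs8, Cox4i1, Atp5d and Ndufaf1 on each of the 21 arrays (points), with mean and SD of each group. After NiO the mean of Ndufs5b lies near control at 3 days and above it at 1 month, and the means of Ndufs7, Ndufs8, Cox4i1 and Atp5d below control at 3 days and above it at 1 month.

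Complex II, succinate dehydrogenase, also belongs to the citric acid cycle, and none of its 4 subunits passed the test after either particle. After NiO at 3 days the catalytic flavoprotein Sdha had a value of 0.23 (adjusted p = 0.283), the iron-sulfur subunit Sdhb 0.04 (adjusted p = 0.854), and the membrane anchors Sdhc and Sdhd -0.07 (adjusted p = 0.682) and 0.20 (adjusted p = 0.132). At 1 month the NiO values were -0.25 for Sdha, 0.20 for Sdhb, -0.11 for Sdhc and 0.09 for Sdhd. C60 values ran from -0.25 to 0.11 at 3 days and from -0.20 to 0.22 at 1 month.

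Complex III passes electrons from ubiquinol to cytochrome c, and none of its 5 genes was called in a comparison with control. Uqcrc1, a core protein of the matrix side, was 1.18, 1.05 and 1.01 in 3-day controls, 0.74 and 0.80 after C60, and 1.24, 0.78, 0.77 and 0.71 after NiO. NiO array 1 was the highest of all these arrays and the other three NiO arrays lay below the controls, so that the value was -0.20 (adjusted p = 0.387). At 1 month it was 0.01, -0.30, 0.25 and 0.52 in controls and 0.54, 0.53, 0.58 and 0.28 after NiO (0.36 ± 0.15, adjusted p = 0.0764). Its partner Uqcrc2 had NiO values of 0.22 (adjusted p = 0.214) and 0.01, and the Rieske iron-sulfur protein Uqcrfs1 0.12 and 0.05.

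Complex IV, cytochrome c oxidase, had Cox4i1 called lower after NiO at 3 days and Cox5b called higher at 1 month. Cox4i1, the isoform of subunit IV found in most tissues, was 2.53, 2.75 and 2.72 in 3-day controls, 2.19 and 2.24 after C60, and 2.39, 1.80, 2.00 and 2.34 after NiO. All particle arrays lay below the controls; Cox4i1 fell after NiO (-0.54 ± 0.16, adjusted p = 0.0324) and had a value of -0.45 ± 0.20 after C60 (adjusted p = 0.229). At 1 month it was 2.69, 2.35, 3.06 and 3.10 in controls, 3.19, 3.11, 2.97 and 3.14 after C60, and 3.26, 3.22, 3.27 and 3.04 after NiO. Control arrays 1 and 2 lay below all particle arrays and control arrays 3 and 4 among them (NiO 0.40 ± 0.15, adjusted p = 0.0551; C60 0.30 ± 0.15, adjusted p = 0.157). The 3-day call was lost in 5 of 7 fits with 1 array left out, all but those without NiO array 1 or 4 (adjusted p up to 0.106).

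Cox4i2, the isoform that is enriched in the lung and responds to oxygen, had NiO values of -0.33 ± 0.15 (adjusted p = 0.129) at 3 days and -0.10 (adjusted p = 0.607) at 1 month. Cox5b, a nuclear subunit on the matrix side, was 3.63, 3.57, 3.86 and 3.88 in 1-month controls, 4.05, 4.01, 3.84 and 4.01 after C60, and 4.14, 3.96, 4.02 and 3.95 after NiO. The NiO arrays were all above the controls, and it rose by 0.28 ± 0.09 (adjusted p = 0.0285). The call was lost without control array 1 (0.25) or 2 (0.23) or NiO array 1 (0.24) or 3 (0.28), and a second probe of Cox5b gave -0.09. The isoforms of heart and muscle on the array, Cox6a2 and Cox8h (now Cox8b), were not called after either particle. Cox6a2 had NiO values of -0.09 and -0.34 (adjusted p = 0.099), and Cox8h C60 values of -0.77 ± 0.39 (adjusted p = 0.328) and 0.65 ± 0.30 (adjusted p = 0.131). The sign of Cox8h depends on the probe: its other probes gave -0.81 and -0.83 after C60 and -0.95 and -1.26 after NiO at 1 month, where the probe used gave 0.65 and 0.38. Cox6b2, known from testis, had the lowest 3-day NiO value of all 69 (-1.02 ± 0.40, adjusted p = 0.0802) and was well above background on 20 of 21 arrays.

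In complex V the genes that changed code for subunits of the stalks and the membrane ring. Atp5d, now Atp5f1d, a small subunit of the central stalk, was 3.38, 3.56 and 3.54 in 3-day controls, 3.10 and 3.21 after C60, and 3.31, 2.65, 2.96 and 3.16 after NiO. All particle arrays were below the controls, but neither particle passed the test (NiO -0.47 ± 0.17, adjusted p = 0.0561; C60 -0.34 ± 0.20, adjusted p = 0.422). At 1 month the controls were 3.12, 2.75, 3.54 and 3.48, the C60 arrays 3.86, 3.68, 3.69 and 3.68, and the NiO arrays 3.84, 3.81, 3.82 and 3.59. All 8 particle arrays were above the controls, and Atp5d rose after NiO (0.54 ± 0.16, adjusted p = 0.0159) and after C60 (0.50 ± 0.16, adjusted p = 0.0324). The NiO call was lost without control array 2 (0.38, adjusted p = 0.0582), and the C60 call in 5 of 8 fits with 1 array left out (adjusted p up to 0.117).

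Atp5f1, now Atp5pb, a subunit of the peripheral stalk, was 6.19, 6.38 and 6.23 in 3-day controls, 6.22 and 6.31 after C60, and 6.39, 7.09, 7.03 and 6.70 after NiO. The NiO arrays lay above the controls, NiO array 1 only just, and it rose by 0.54 ± 0.14 (adjusted p = 0.0176), with a value of -0.01 ± 0.13 at 1 month. The call was lost without control array 1 (0.50) or 3 (0.52) or NiO array 2 (0.44) or 3 (0.46). Atp5g1 and Atp5g2 code for the same mature subunit of the membrane ring, and both rose after NiO at 1 month, by 0.33 ± 0.11 (adjusted p = 0.0342) and 0.32 ± 0.12 (adjusted p = 0.048). Atp5g1 was 3.96, 3.77, 4.22 and 4.26 in controls and 4.47, 4.34, 4.51 and 4.18 after NiO. Atp5g2 was 4.67, 4.51, 5.14 and 5.09 in controls and 5.25, 5.17, 5.23 and 5.04 after NiO. In both, control arrays 1 and 2 were the lowest and NiO array 4 overlapped control arrays 3 and 4, and both calls were lost in 5 of 8 fits with 1 array left out (adjusted p up to 0.125 and 0.178). The third gene of that ring, Atp5g3, had NiO values of 0.25 at 3 days and 0.12 at 1 month from the probe used and -1.13 and -0.15 from its other probe. The catalytic head subunits Atp5a1 and Atp5b and the shaft subunit Atp5c1 had 3-day NiO values of 0.26 (adjusted p = 0.146), -0.16 and 0.25 and 1-month values of 0.02, 0.22 and 0.03. Atp5s (Dmac2l), which matched by name only, rose after NiO at 3 days (0.42 ± 0.12, adjusted p = 0.0186); the call was lost without control array 1 (0.43) or 2 (0.38) or NiO array 2 (0.36) or 3 (0.39).

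NiO and C60 were also set against each other. At 3 days 3 genes were higher after NiO and none lower, 4.35% of the 69 beside 7.80% of all genes tested (5.06% higher, 2.74% lower). The NiO and C60 arrays did not overlap in 21 genes higher and 1 lower, 31.9% of the 69, beside 25.3% of all genes. The 3 genes called included Cox8a, a small subunit of complex IV (0.57 ± 0.14, adjusted p = 0.0227). The others were the accessory complex I subunits Ndufa12 (0.51 ± 0.14, adjusted p = 0.0361) and Ndufb7 (0.45 ± 0.12, adjusted p = 0.0254). Cox8a was 4.61, 4.76 and 4.71 in controls, 4.30 and 4.45 after C60, and 4.65, 5.15, 5.22 and 4.76 after NiO, and Ndufa12 was 4.02, 4.02 and 3.95, then 3.49 and 3.53, then 3.84, 4.06, 4.23 and 3.99. In both genes the C60 pair was below the other groups. The count was 0 without C60 array 1, C60 array 2, NiO array 2 or NiO array 3, 22 without NiO array 1, and 23 with all 4 C60 arrays. At 1 month no gene was called by limma, beside 1.25% of all genes tested; 3 of the 69 had an unadjusted p under 0.05, and the median of the 69 was 0.01. The count at 1 month was 0 under every alternative run, including each array left out.

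The difference between a particle's effect at 1 month and at 3 days was tested directly. For NiO it passed in 13 of the 69, 8 upward and 5 downward, 18.8% beside 37.5% of all genes tested (14.5% upward, 23.0% downward). Upward differences were Ndufa2 (1.64 ± 0.51, adjusted p = 0.0202), Ndufs8 (1.04 ± 0.22, adjusted p = 0.00373), Atp5d (1.02 ± 0.23, adjusted p = 0.00506), Cox4i1 (0.93 ± 0.22, adjusted p = 0.00663), Ndufv1 (0.71 ± 0.22, adjusted p = 0.0188) and Ndufs7 (0.56 ± 0.12, adjusted p = 0.00448), with Atp5g2 at 0.45 and Cox5b at 0.44. Downward differences included Ndufaf1 (-0.74 ± 0.17, adjusted p = 0.00556), Atp5s (-0.57), Atp5f1 (-0.55) and Ndufb2 (-0.44). For C60 it passed in 8 genes, all upward, 11.6% beside 10.5% of all genes (4.25% upward, 6.22% downward). These were Ndufs8 (0.94), Atp5d (0.84), Ndufs7 (0.72 ± 0.14, adjusted p = 0.00331), Atp5g2 (0.72), Ndufa12 (0.68), Ndufa11 (0.67), Cox5b (0.59) and Ndufb7 (0.54). With 1 array left out, the Ndufs8 difference kept its call for NiO in all 15 fits (0.88 to 1.12) and lost it for C60 in 3 of 13 (0.78 to 1.01, adjusted p up to 0.0768). The NiO count was 22 without NiO array 1 at 3 days and was lower than 13 without NiO arrays 2 and 3 of that time. Median scaling gave 38 upward and 0 downward for NiO. With 1 array left out, NiO calls were lost in 11 of 15 fits for Atp5g2, 10 for Ndufb2 and 7 for Atp5f1. Cox5b lost its NiO call in 1, and Ndufa2, Atp5d, Cox4i1, Ndufv1, Ndufs7, Ndufaf1 and Atp5s in none. The C60 count was 1 without control array 2 or either C60 array at 3 days, 4 without control array 1 or 3 at 3 days, 5 without 1-month control array 2 or C60 array 1, 4 without 1-month C60 array 2 or 4, and 14 without 1-month control array 4.

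Control lungs of the 2 times differed in many of these genes. Of the 69 genes, 29 were higher and 4 lower in 1-month than in 3-day controls, 47.8% beside 46.1% of all genes tested (27.8% higher, 18.3% lower), with a median of 0.28 beside 0.19. The control groups of the times did not overlap in 36 genes higher and 4 lower, 58.0% of the 69, beside 49.9% of all genes. Ndufaf1 rose by 1.15 ± 0.12 (adjusted p = 2.59e-06) and Uqcrc1 fell by 0.96 ± 0.16 (adjusted p = 0.000191). The mean of the 69 on an array, each gene set against its own mean over all arrays, was -0.14 ± 0.10 (SD, n = 3) in 3-day controls, -0.32 ± 0.01 (n = 2) after C60 and -0.14 ± 0.11 (n = 4) after NiO. At 1 month it was 0.13 ± 0.09 in controls, 0.24 ± 0.10 after C60 and 0.23 ± 0.08 after NiO (n = 4 each). The C60 pair at 3 days lay below every control array of that time, and at 1 month the 3 groups overlapped.

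**Figure D3:**
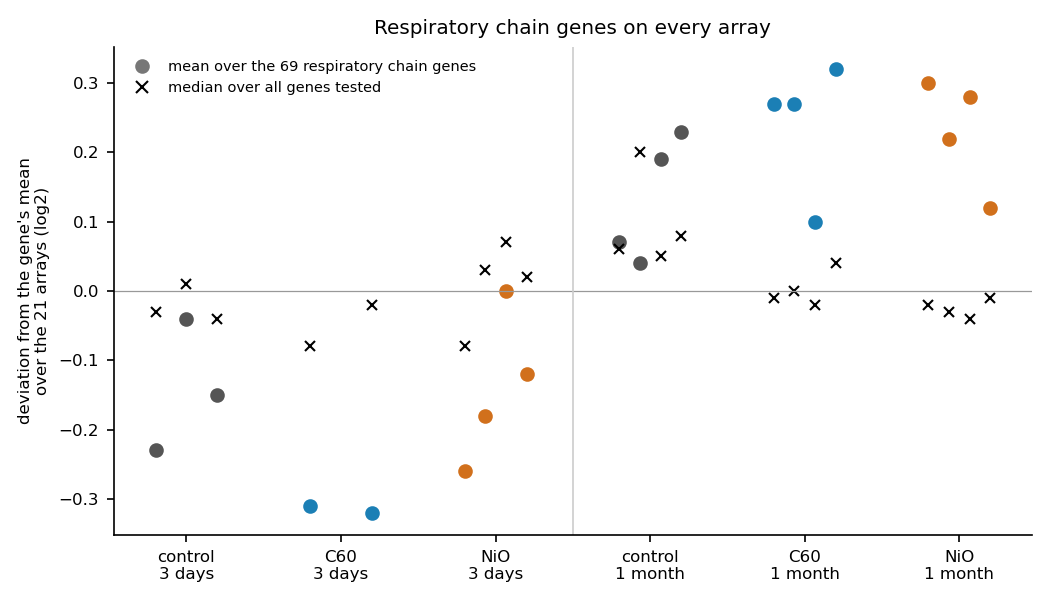
Mean deviation of the 69 genes from their own means over the 21 arrays (points, log2 units) on each array, by group, with the median deviation of all genes tested as crosses. The 2 C60 arrays at 3 days are the lowest, at -0.31 and -0.32, and all 12 arrays of 1 month lie above all 9 arrays of 3 days.

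The differences varied with the base composition of the probes. Over the 69 genes, the Pearson correlation of the log2 difference with the share of G and C in the probe was -0.42 after NiO at 3 days, 0.37 after NiO at 1 month, -0.61 after C60 at 3 days and 0.57 after C60 at 1 month. Over all genes tested these were -0.10, 0.07, -0.22 and 0.08, and over the 3860 bright genes -0.17, 0.37, -0.24 and 0.45. Between the times in controls it was -0.63 over the 69. Genes share arrays and controls, so these values are a description and carry no p. The median share of G and C in the probes was 45.0% (43.3% over all genes).

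Split at limits chosen after the values were seen, the 24 genes with probes of at most 42% G and C had median NiO differences of 0.05 at 3 days and 0.05 at 1 month, and the 20 genes at 50% or more had -0.15 and 0.22. After C60 the medians were -0.07 and 0.01 in the first set and -0.33 and 0.29 in the second. At 3 days after NiO, 4 of the genes in the first set were called higher and 0 lower, and in the second 0 higher and 2 lower. The mean of the second set minus that of the first was 0.32 to 0.39 on the 3-day control arrays, 0.07 and 0.00 on the C60 arrays, and 0.30, -0.12, -0.16 and 0.01 on the NiO arrays. On the 1-month control arrays it was -0.36, -0.62, -0.10 and -0.10, and on all particle arrays of that time between -0.13 and 0.03. NiO array 1 was thus close to the 3-day controls, and 1-month control arrays 1 and 2 were the lowest of all 21. With each array's trend over G and C content taken out, the correlations over the 69 were -0.21, 0.04, -0.25 and 0.20 in the order given above, and 8, 18, 1 and 6 genes were called. These were not all the same genes as before. Ndufs7 lost its calls after NiO at 3 days and after C60 at both times. Ndufb7 lost its call after C60 at 3 days, and Ndufa7 after NiO at 1 month. Of the differences between times, Atp5f1, Atp5g2, Atp5s and Ndufb2 lost the NiO call. Atp5d, Cox5b, Ndufa11, Ndufb7 and Ndufs7 lost the C60 call. The part of base composition in the calls was not tested beyond this.

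**Figure D4:**
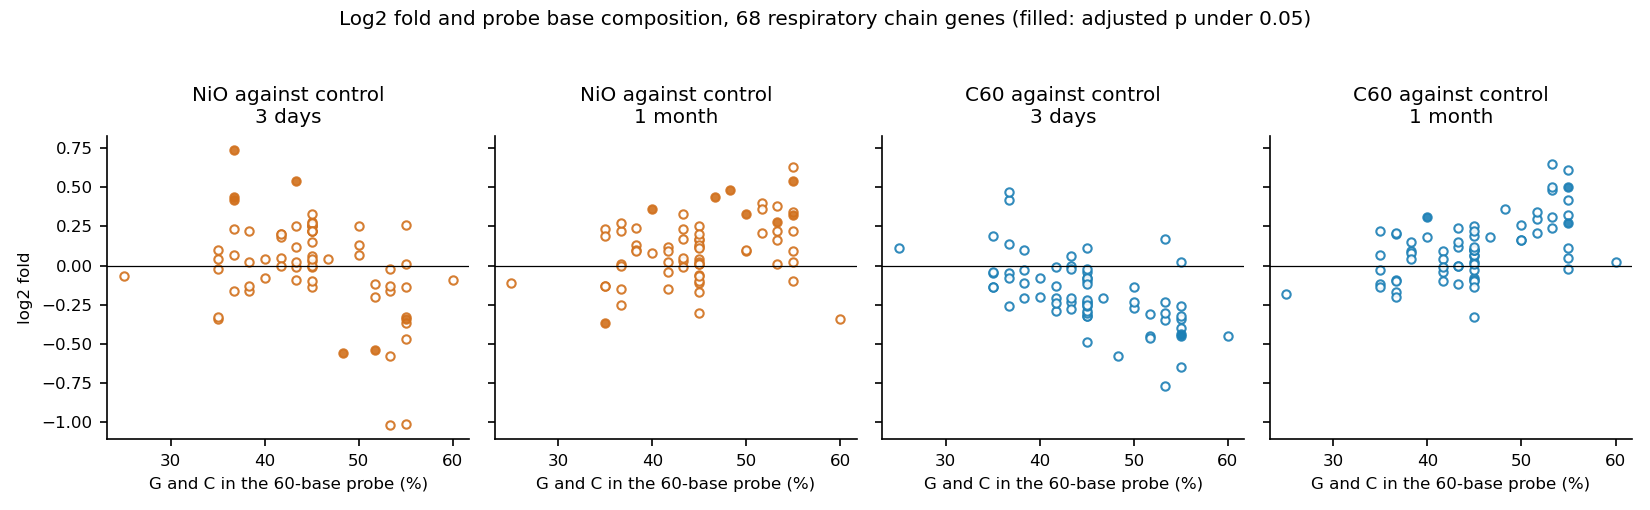
Log2 difference from control of 68 of the 69 genes against the share of G and C in the probe (percent), in a panel for each particle and time. The points slope down at 3 days (Pearson correlation over the 69 of -0.42 for NiO and -0.61 for C60) and up at 1 month (0.37 and 0.57).

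Genes next to the respiratory chain were counted from lists, to be read beside the 11.1% of all genes tested that were called higher and 7.88% called lower after NiO at 3 days, and the 12.0% and 18.9% at 1 month. In the citric acid cycle, which feeds the chain with NADH and succinate, 6 of 14 genes rose (42.9%) and none fell after NiO at 3 days, among them Idh3a (0.47), Pc (0.45), Suclg1 (0.44) and Fh1 (0.43), with a list median of 0.23. Of 16 glycolytic genes 8 rose and none fell, with a median of 0.37; the hexokinase Hk2 rose by 1.78 (adjusted p = 7.02e-05), the glucose transporter Slc2a1 by 0.83 and the lactate dehydrogenase Ldha by 0.77. Among genes of other lists, Etfa and Etfdh, which bring electrons from fatty acid oxidation to ubiquinone, rose by 0.54 and 0.60. The phosphate carrier Slc25a3 and the ATP exporter Slc25a5 rose by 0.40 and 0.34. These genes are named because they passed the test, as did 19.0% of all genes tested. They do not stand for their lists. None of 13 genes of mitochondrial biogenesis was called by limma (median 0.10), and the mitochondrial ribosome had 2 of 61 higher and 2 lower (6.56% in all, beside 19.0%).

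At 1 month after NiO, glycolysis had 10 of 16 genes higher and 1 lower (median 0.42), the citric acid cycle 2 of 14 higher and 1 lower, and the mitochondrial and cytosolic ribosomes 8 of 61 (13.1%) and 8 of 69 (11.6%) higher with none lower, close to the share over all genes called higher. The coactivator Ppargc1b, known as a driver of mitochondrial biogenesis, fell by 1.82 after NiO (adjusted p = 0.00211) and by 1.37 after C60. Of all genes tested, 18.9% and 12.5% were called lower in these comparisons. Ppargc1b is a single gene of the biogenesis list and does not stand for it. After C60, 4 of 16 glycolytic genes were higher at 1 month (beside 7.36% of all genes) and none was called at 3 days. Of 6 respiratory chain genes of mitochondrial DNA, a list added once the names on the array had been seen, COX1 of complex IV rose after NiO at 3 days (0.40, adjusted p = 0.0317) and ND2 of complex I fell at 1 month (-0.94, adjusted p = 0.0368). ND2 ran from 2.55 to 4.76 on the 1-month control arrays and from 2.54 to 2.88 on the NiO arrays, which overlap.

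**Figure D5:**
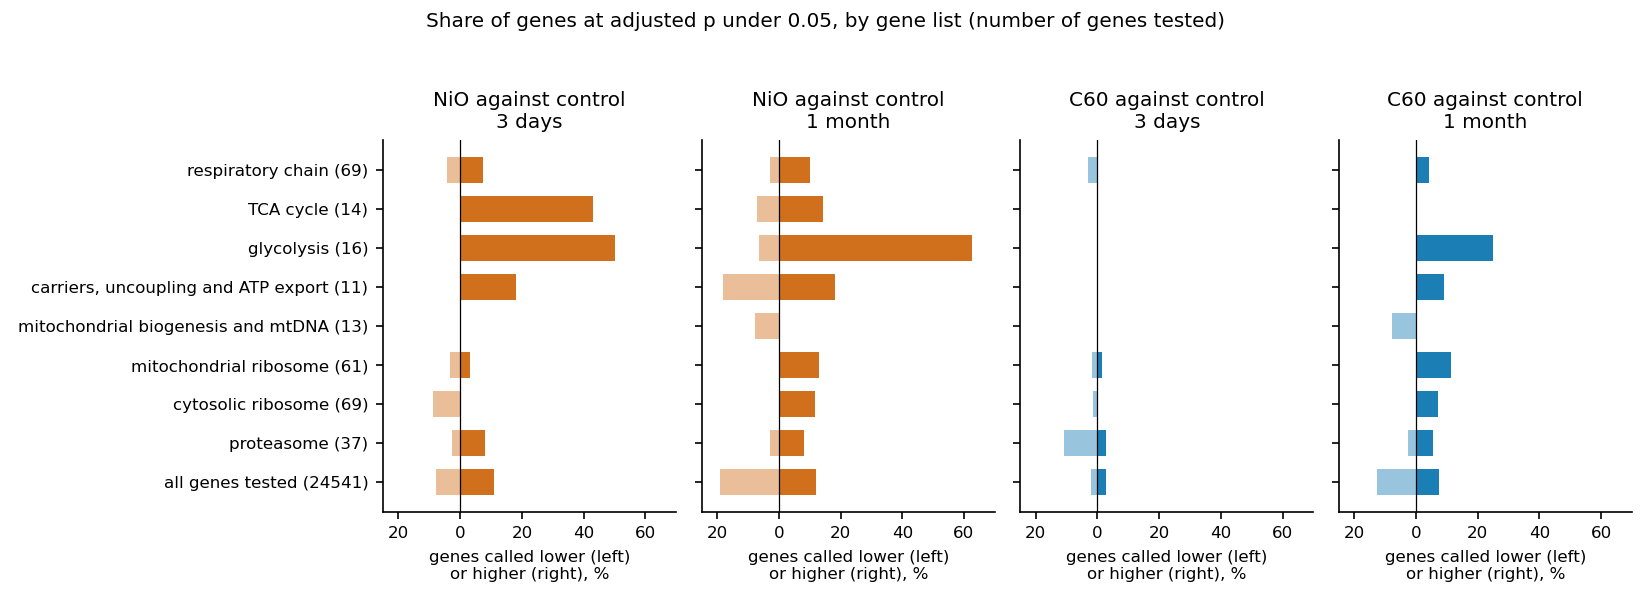
Share of the genes of each list (percent) called higher or lower than control, in a panel for each particle and time. After NiO glycolysis has 8 of 16 genes called higher at 3 days and 10 of 16 at 1 month, beside 5 and 7 of the 69 respiratory chain genes.

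Markers of cells rich in mitochondria were read beside these values. All 11 heart muscle markers on the array were measured on every group; their summed level (linear, 1 being the array's 75th percentile) was 100 to 142 in 3-day controls, 73.0 to 103 after C60 and 120 to 165 after NiO, and at 1 month 100 to 175, 132 to 191 and 81.6 to 112. Of the 11, only Myh7 was called after NiO: it rose at 3 days (0.94, adjusted p = 0.0102), where the list median was -0.08 and 4 of the 11 lay above 0, and fell at 1 month (-0.74, adjusted p = 0.0152), where the median was -0.47 and 2 lay above 0. After C60 none was called by limma at 3 days (median -0.67, 8 with an unadjusted p under 0.05), and at 1 month Mybpc3 rose (0.89, adjusted p = 0.045; median 0.31, all 11 above 0). The 8 alveolar type II markers summed to 1280 to 1410 in 3-day controls, 1100 to 1210 after C60 and 1290 to 2160 after NiO. The NiO and control ranges overlapped. At 1 month the sums were 1250 to 1500, 1260 to 1370 and 1260 to 1480 in the same order, and all groups overlapped. After NiO 2 of the 8 rose at 3 days and 3 at 1 month, beside 11.1% and 12.0% of all genes called higher. The part of these cells in the values of the respiratory chain genes was not tested.

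The promoters of these genes are known to hold sites for NRF1, ETS factors (which include NRF2) and YY1. In the 250 bases before the start site, from RefSeq's assembly GRCr8 and on both strands, the NRF1 motif GCGCNTGCG was found in 14 of the 58 genes matched by name (24.1%) and in 5.58% of 27457 promoters. The ETS motif CCGGAAG was found in 17 (29.3%, beside 7.74%) and the YY1 motif AAGATGGCG in 1 (1.72%, beside 0.736%). The ETS motif ends with the letters that begin the YY1 motif, so these can share bases. A match is a description of these letters only. The promoters of Ndufs5b, which rose at 1 month after both particles, and of Ndufs8, which changed in both directions, are shown with the match in capitals. The first lies at chr5:141264403-141264652 on the minus strand and holds the NRF1 motif, the second at chr1:210573699-210573948 on the minus strand and holds the ETS motif, both read on the opposite strand of the sequence shown.
Ndufs5b: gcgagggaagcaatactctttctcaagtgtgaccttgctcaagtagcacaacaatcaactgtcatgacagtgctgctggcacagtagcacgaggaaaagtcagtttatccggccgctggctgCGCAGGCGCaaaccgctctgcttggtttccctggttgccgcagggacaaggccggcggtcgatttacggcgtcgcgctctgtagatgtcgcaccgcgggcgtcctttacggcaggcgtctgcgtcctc
Ndufs8: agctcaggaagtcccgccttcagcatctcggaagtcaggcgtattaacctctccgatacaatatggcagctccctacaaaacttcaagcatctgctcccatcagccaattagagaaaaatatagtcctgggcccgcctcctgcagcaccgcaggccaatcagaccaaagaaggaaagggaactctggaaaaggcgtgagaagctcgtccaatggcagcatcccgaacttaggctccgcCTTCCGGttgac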

How the data were processed

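Labelled RNA of right lungs was read on 1-colour arrays of 60-base probes. Per the file headers, Feature Extraction 9.5.3.1 (protocol GE1-v5_95_Feb07) made the deposited intensity values, with background subtracted and a spatial trend removed; intensities carry no read depth, and the number of arrays limits the precision. The authors also deposited a ratio per probe and group, with no account of how it was made in the sources used here; it entered no test. Of 4 C60 arrays at 3 days, the label gives n = 2, and arrays 1 and 2 rebuilt the deposited ratio column (median difference 0.00082 log2 units, against 0.109 for all 4), so those 2 were used. That 1 array is 1 lung was read from the labels.

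Control and outlier spots were left out, and log2 of the deposited processed intensity was scaled to each array's 75th percentile. A probe was kept where well above background on every array of at least 1 group (28685 of 41012), and the brightest kept probe stood for a gene, also in the alternatives where it passed their filter. Differences were tested with limma 3.58.1 (R 4.3.3; lmFit and eBayes, 15 residual and 2.31 prior degrees of freedom) in 1 fit over the 6 groups, with Benjamini-Hochberg adjustment over 24541 features and a threshold of 0.05. On data simulated for NiO against control at 3 days over those 24541 features, 21% of changes of 0.5 and 63% of changes of 1 (log2) were recovered, with 3 false calls. Few genes were changed in that simulation, with independent noise between genes, whereas 19.0% of genes were called in the data. These rates therefore do not measure the power or error of the test in the data. Current names came from a RefSeq gene table of GRCr8: 45 of the 70 genes by accession, 22 by symbol and 3 by an older symbol; 20 are named differently now. The genes named in the text are those called in a comparison with control, fixed core subunits and isoforms, and the largest differences between times; the members and all lists were chosen with earlier results of these data known. 1 gene is counted with the 70 but its values are not reported here. Quantile, median and normexp settings, filters, probe averaging, arrays left out, array position as a block and the slide mean were alternatives.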

Additional observations from a re-analysis of the deposited data

Results flagged for a closer look

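Among 148 sets of 4 arrays of the named genes, 11 had 1 array far from the other three, where chance alone gives about 5%. Atp5d was high on C60 array 1 at 1 month (3.86, others 3.68 to 3.69) and low on NiO array 4 (3.59, others 3.81 to 3.84). Ndufs7 was high on C60 array 4 at 1 month (4.77, others 4.50 to 4.53) and on NiO array 1 (4.62, others 4.50 to 4.51). Uqcrc1 was high on NiO array 1 at 3 days (1.24, others 0.71 to 0.78) and low on NiO array 4 at 1 month (0.28, others 0.53 to 0.58). Among 1-month controls Cox8a was low on array 1 (4.94, others 5.07 to 5.09), Ndufa7 low on array 2 (0.18, others 0.52 to 0.54) and Sdhc high on array 4 (3.36, others 3.24 to 3.26). Ndufaf1 was high on NiO array 3 at 1 month (-1.36, others -1.53 to -1.51) and Ndufv1 low on C60 array 4 (1.12, others 1.25 to 1.27).

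The NiO effect differed between 1 month and 3 days, by limma's test of the difference, in Ndufa2 (1.64), Ndufs8 (1.04), Atp5d (1.02), Cox4i1 (0.93), Ndufv1 (0.71), Ndufs7 (0.56), Atp5g2 (0.45), Cox5b (0.44), Ndufb2 (-0.44), Atp5f1 (-0.55), Atp5s (-0.57) and Ndufaf1 (-0.74), among others. The C60 effect differed in Ndufs8 (0.94), Atp5d (0.84), Ndufs7 (0.72), Atp5g2 (0.72), Ndufa12 (0.68), Ndufa11 (0.67, adjusted p = 0.05 after rounding), Cox5b (0.59) and Ndufb7 (0.54). Time and scan cannot be told apart in these differences.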

How the results depend on the processing

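No paired analysis was possible because the labels carry no replicate numbers. Counts of respiratory chain genes called are given beside those of the report. Quantile normalization gave 1 for C60 at 3 days and 20 for the NiO difference between times, and medians of -0.13 for C60 at 3 days, 0.05 for NiO against C60 at 3 days and 0.10 between control times. Median scaling gave 47 for NiO and 42 for C60 at 1 month, 0 for C60 and for NiO against C60 at 3 days, and 38 and 30 for the NiO and C60 differences between times, with medians of -0.15 and 0.44 for NiO at 3 days and 1 month, 0.40 for C60 at 1 month, 0.07 for NiO against C60 at 3 days and 0.12 between control times. Normexp background gave 14 for NiO and 10 for C60 at 1 month, 5 for C60 at 3 days and 5 for the C60 difference. With no filter the counts were 5 for NiO at 1 month, 1 for C60 at 3 days and 5 for the C60 difference. The mean of a gene's probes gave 4 and 5 for C60 at 3 days and 1 month. All 4 C60 arrays gave 14 for C60 at 3 days, 23 for NiO against C60 and 23 for the C60 difference. With only the groups compared in the fit, counts were 0 and 4 for NiO at the 2 times, 0 for C60 at both, and 0 for NiO against C60 at 3 days. Array position as a block gave 1 for C60 at 3 days and 5 for the C60 difference. Alternatives chosen after seeing the data followed. Without NiO arrays 2 and 3 the counts were 1 for NiO and 0 for NiO against C60 at 3 days and 6 for the NiO difference. Without control arrays 3 and 4 at 1 month they were 22 for NiO, 17 for C60, 24 for the NiO and 22 for the C60 difference. With the trend over probe G and C content taken out they were 18 for NiO and 6 for C60 at 1 month, 1 for C60 at 3 days and 5 for the C60 difference. With the slide mean as the unit, 1 effect per particle was fitted over both times, and the count was 0 for each particle. Effects of opposite sign at the times cancel there, so it does not test either time by itself. Ndufs8 after NiO (-0.04) and Ndufs7 after C60 (-0.09) are such cases. Leaving out 1 array at a time gave 2 to 25 for NiO and 0 to 1 for C60 at 3 days, 3 to 12 for NiO and 0 to 9 for C60 at 1 month, 0 to 22 for NiO against C60 at 3 days, 10 to 22 and 1 to 14 for the NiO and C60 differences, and 28 to 35 between control times. The slide-mean values of Ndufs8 after NiO (-0.04) and Ndufs7 after C60 (-0.09) have a sign opposite to that at 1 month. Each is 1 effect fitted over both times, so it says nothing about the 1-month sign by itself. Among the genes named, the sign turned for Ndufb2 (0.07) in the NiO difference with median scaling. It also turned for Ndufa7 (0.00) after NiO at 1 month in the authors' deposited table. The causes were not tested. Where probes of 1 gene disagree (Atp5g3, Cox8h, Ndufb3, Ndufc2, Ndufa9), the probe choice decides the value.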

Other observations

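Several respiratory chain genes have a dimmer probe whose 1-month values go the other way, in Ndufc2 at 3 days after NiO as well. The other probe of Ndufb3, an accessory subunit of the membrane arm of complex I, gave 1.67 and -1.14 after NiO at 3 days and 1 month, where the probe used gave 0.07 and 0.27. The other probes of Ndufc2 gave 0.85 and 1.00 at 3 days and -0.84 and -1.13 at 1 month, where the probe used gave -0.13 and 0.24. The other probe of Ndufa9, a subunit near the ubiquinone site, gave 0.51 and -0.68, where the probe used gave 0.22 and 0.09. These probes were well above background on 20 or 21 of the 21 arrays. The 2 probes of Ndufa2 agreed in sign at both times after both particles (NiO -1.01 and -0.90 at 3 days, 0.63 and 0.60 at 1 month).

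Of 11 genes of mitochondrial carriers, uncoupling and ATP export, 2 rose and 2 fell at 1 month after NiO, 36.4% beside 31.0% of all genes tested, with a list median of 0.05. Ucp2, an inner membrane carrier of immune and other cells, rose by 0.77, the ATP exporter Slc25a5 rose by 0.35, Ucp3, the relative of Ucp2 in muscle and brown fat, fell by 1.55, and Ckmt2, the creatine kinase of muscle mitochondria, fell by 0.71. Of 7 macrophage markers only Cd68 was called after NiO at 3 days (0.66), where the list median was -0.06 and 3 of the 7 lay above 0. At 1 month Cd68 (0.99), Csf1r (0.91) and Mertk (0.45) rose and none fell, beside 12.0% of all genes called higher, with a list median of 0.33. The summed level of the 7 was 346 to 425 in 3-day controls and 344 to 718 after NiO. At 1 month it was 370 to 431 in controls and 343 to 399 after NiO. The ranges overlapped at both times.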
